A study of Mus musculus with 12 samples.

Results

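The CXC chemokine genes are examined here in cultures labelled as primary mouse adult fibroblasts, which were outgrowths of biopsies from C57BL6/j mice of WT genotype. Members were chosen by symbol: every gene whose symbol begins with Cxcl, together with *Pf4* and *Ppbp*, the family members that carry other names. The deposited table held 7 of them among its 10697 genes, namely *Cxcl1*, *Cxcl2*, *Cxcl5*, *Pf4*, *Cxcl12*, *Cxcl14* and *Cxcl16*. The 8 other family genes of the RefSeq gene table (*Ppbp*, *Cxcl3*, *Cxcl9*, *Cxcl10*, *Cxcl11*, *Cxcl13*, *Cxcl15* and *Cxcl17*) were not analysed here. The family was chosen with measured values in view, since the lower level of *Cxcl2* and *Pf4* in thymol-treated cells was known from these same libraries. The differences between the groups are therefore given as a description of the members. No p-value is given for a member, and whether a member passed the threshold of the fit over all genes is stated only to place it among them.

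Cells received 100 µM Thymol, a phenolic monoterpene of thyme and oregano dissolved in DMSO, for 24 h (6 libraries). Control cells received an equal volume of the solvent DMSO (6 libraries). The labels do not say whether the libraries of a group came from separate cultures or animals, so every spread and p-value given here speaks of the variation between these libraries, which may be technical. Transcripts were read by QuantSeq 3′ mRNA sequencing, which reads each transcript near its 3′ end and is little affected by transcript length, so that levels of different genes can be set side by side. Levels are given as log2 CPM, the base-2 logarithm of reads scaled to a common library size, with a small prior added.

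Chemokines are small secreted proteins that steer the migration of leukocytes through receptors coupled to G proteins, and the CXC class is named for the single residue that parts its first cysteines. Members with an ELR motif (*Cxcl1*, *Cxcl2*, *Cxcl5*) bind CXCR2 and draw neutrophils, and their genes are classical targets of NF-κB in fibroblasts and macrophages. *Pf4* encodes platelet factor 4, or CXCL4, a heparin-binding chemokine stored in platelet granules and also made by macrophages. *Cxcl12* encodes the ligand of CXCR4 and ACKR3 and is typical of stromal cells, while *Cxcl14* is a chemokine of epithelium and stroma. *Cxcl16* encodes a chemokine anchored in the membrane, the ligand of CXCR6.

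Reads recovered from the table numbered 5435985 to 9049796 per library. Of 16 fibroblast markers, 14 were measured, at a median level of 8.17 log2 CPM (*Lum* and *Fap* were not in the table). Of 20 macrophage markers, 19 were measured as well, at a median level of 7.90 log2 CPM, among them *Csf1r*, *Adgre1* and *C1qa*. The libraries labelled as fibroblasts thus held abundant transcripts of both cell types. In bulk RNA, fewer cells of a type and less RNA per cell cannot be told apart.

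The promoters of *Cxcl1* and *Cxcl2* are shown first, because they held κB motif matches that the promoters of *Pf4*, *Cxcl12* and *Cxcl14* did not. The sequences are from RefSeq, build GRCm38.p6, and are written 5′ to 3′ on the strand of the gene, from the bases before the annotated start of transcription. Capitals mark matches to the κB motif GGGNNTTTCC, searched on both strands. *Cxcl2* lies at chr5:90903649-90903870 (plus strand, 222 bases), *Cxcl1* at chr5:90890995-90891240 (plus strand, 246 bases) and *Pf4*, shown for contrast, at chr5:90772185-90772434 (plus strand, 250 bases).
Cxcl2: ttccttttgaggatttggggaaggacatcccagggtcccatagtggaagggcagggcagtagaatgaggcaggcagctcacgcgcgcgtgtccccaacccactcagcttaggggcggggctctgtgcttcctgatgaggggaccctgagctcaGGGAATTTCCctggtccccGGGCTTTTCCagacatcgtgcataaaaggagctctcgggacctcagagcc
Cxcl1: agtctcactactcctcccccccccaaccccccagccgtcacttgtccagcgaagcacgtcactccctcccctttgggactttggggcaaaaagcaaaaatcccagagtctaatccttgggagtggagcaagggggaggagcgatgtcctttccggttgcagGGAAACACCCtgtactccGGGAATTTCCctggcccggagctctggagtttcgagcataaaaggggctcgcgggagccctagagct
Pf4: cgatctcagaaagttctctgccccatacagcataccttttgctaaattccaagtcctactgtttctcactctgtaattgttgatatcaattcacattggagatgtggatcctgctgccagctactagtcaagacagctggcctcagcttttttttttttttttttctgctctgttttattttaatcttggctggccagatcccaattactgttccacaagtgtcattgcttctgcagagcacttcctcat

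The *Cxcl2* promoter held 2 matches, GGGAATTTCC and GGGCTTTTCC, which began 97 and 78 bases before the RefSeq start. *Cxcl1* also held 2, GGAAACACCC, a match on the opposite strand that began 89 bases before the start, and GGGAATTTCC at 71 bases. No match lay in the 250 bases before *Pf4*, *Cxcl12* or *Cxcl14*, and *Cxcl5* and *Cxcl16* were not matched to a promoter. Among 27025 RefSeq promoters of 250 bases, 378 (1.4%) held at least 1 match and 7 (0.0259%) held 2 or more. A match was held by 1.28% of the promoters of measured genes. The *Cxcl2* and *Cxcl1* stretches were shorter, at 222 and 246 bases, and the family's own promoters are part of that background. The motif was searched in known NF-κB targets after their values were seen, so nothing is read from its rarity. The AP-1 motif TGANTCA was in 6.87% of all promoters and 4.21% of those of genes in the table, TATAAA was in 13% and 6.11%, and neither was in any of the 5 promoters examined. A match of letters is a description and not evidence of binding.

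In the GENCODE vM21 annotation of GRCm38, the 4 members *Cxcl5* (chromosome 5, 90759360 to 90761624), *Pf4* (90772435 to 90773383), *Cxcl1* (90891241 to 90893115) and *Cxcl2* (90903871 to 90905938) lie on the plus strand of chromosome 5 within 146.6 kb, and all 7 protein-coding genes of that span belong to the family. *Cxcl12* lies elsewhere, on chromosome 6 (117168535 to 117181367, plus strand), *Cxcl16* on chromosome 11 (70453983 to 70459984, minus strand) and *Cxcl14* on chromosome 13 (56288643 to 56296551, minus strand). The 4 members with the most negative mean differences between thymol and DMSO were the 4 genes of the chromosome 5 cluster. Nothing is read from this, since the family was chosen with this contrast known. *Cxcl1* and *Cxcl5* did not pass the threshold of the fit over all genes. *Ppbp*, *Cxcl3* and *Cxcl15*, which lie in the same span, were not analysed here.

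In DMSO-treated cells, *Cxcl12* had the highest level of the family at 8.06 ± 0.15 log2 CPM (SD, n = 6), above 94.5% of all genes. *Pf4* followed at 8.0 ± 0.30, and these neighbours in the order overlapped, with *Cxcl12* higher in 4 of 6 libraries. *Cxcl16* stood at 7.35 ± 0.12, below *Pf4* in every DMSO library. *Cxcl14*, near the middle of all genes, had a level of 5.10 ± 0.34 and overlapped *Cxcl2* at 4.26 ± 0.32. The other ELR members were the lowest, *Cxcl5* at 3.14 ± 0.42 and *Cxcl1* at 2.80 ± 0.34, with overlapping ranges. Only 9.58% of all genes had a lower level than *Cxcl1*. The stromal members and *Pf4* were thus well covered by reads, and *Cxcl1* and *Cxcl5* were among the low genes of the table.

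In thymol-treated cells the order differed. *Cxcl12* remained first at 8.09 ± 0.14 log2 CPM (SD, n = 6), and *Cxcl16* came next at 7.34 ± 0.11. *Pf4* was at 6.92 ± 0.52 and overlapped *Cxcl16*. *Cxcl14* followed at 4.68 ± 0.19. The 3 ELR members came last and overlapped one another, with *Cxcl5* at 2.32 ± 0.49, *Cxcl2* at 2.29 ± 0.44 and *Cxcl1* at 1.83 ± 0.44.

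**Figure D1:**
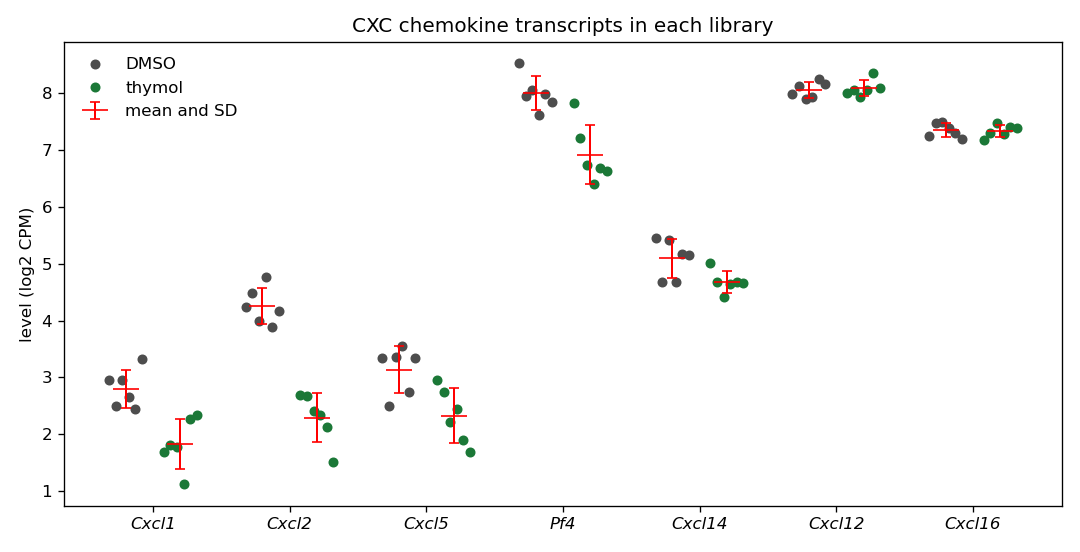
Level of each CXC chemokine gene in log2 CPM (vertical axis) in the 6 DMSO libraries (grey points) and the 6 thymol libraries (green points), with the mean and SD of each group in red. The points of *Cxcl1* and *Cxcl2* do not overlap between the groups, those of *Pf4* overlap through 1 thymol library at 7.83, and those of *Cxcl12* and *Cxcl16* lie at similar heights.

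The plot of levels in each library shows mean differences that ran from -1.96 log2 units for *Cxcl2* to 0.025 for *Cxcl12*, with *Cxcl14* between at -0.42. Of the 7 members, 2 (*Cxcl2* and *Pf4*) were lower with thymol and past an adjusted p-value of 0.05 in limma, and 0 were higher. Of all 10697 genes tested, 168 (1.57%) were lower past that threshold and 70 (0.654%) were higher. For 2 members (*Cxcl1* and *Cxcl2*) all 6 thymol libraries lay below every DMSO library, as they did for 124 of all genes (1.16%). *Pf4* did not pass when the fit was made without a mean-variance trend. Since the family was chosen with this contrast known, nothing is read from these counts. A negative difference of any size was found for 6 of the 7 members, among them *Cxcl16* at -0.0090 log2 units. Nothing is read from this count either, and the median difference over all genes was 0.0026.

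*Cxcl2*, also known as macrophage inflammatory protein 2, recruits neutrophils. Its level ranged from 3.89 to 4.76 log2 CPM in the DMSO libraries, with a median of 4.20, and from 1.52 to 2.69 in the thymol libraries, with a median of 2.37. Every thymol library was therefore below every DMSO library, and the highest thymol value (replicate 1) was more than 1 log2 unit under the lowest DMSO value (replicate 5). The mean difference, thymol minus DMSO, was -1.96 ± 0.22 on the log2 scale (SE, 95% confidence interval -2.41 to -1.52), a level 3.90-fold lower with thymol.

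The read support of *Cxcl2* differed between the groups. It had 91 to 179 reads per DMSO library and 14 to 40 reads per thymol library, and 4 of 6 thymol libraries reached 30 reads, the minimum of the authors' filter. Pooled over the libraries and scaled to their totals, the thymol level was 0.249 of the DMSO level (95% interval 0.212 to 0.293, counting error only). The spread between thymol libraries, 0.44 log2 units, was wider than the 0.25 that counting alone gives at those reads. In the DMSO libraries the observed spread was 0.32 and the counting spread was 0.12. Counting error therefore made up only part of the variation of *Cxcl2* between libraries.

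*Cxcl1*, known as KC in mouse, is another ligand of CXCR2. Its level was 2.44 to 3.32 log2 CPM (median 2.80) in the DMSO libraries and 1.12 to 2.34 (median 1.79) in the thymol libraries. All 6 thymol libraries were below all DMSO libraries, but the gap between thymol replicate 6 (2.34) and DMSO replicate 5 (2.44) was narrow. The mean difference was -0.97 ± 0.29 log2 units (SE, 95% confidence interval -1.55 to -0.39). *Cxcl1* was the least abundant member, with 32 to 68 reads per DMSO library and 11 to 41 per thymol library, and only 1 thymol library reached 30 reads. The pooled ratio of thymol to DMSO was 0.503 (95% interval 0.408 to 0.619, counting error only). *Cxcl1* was not past the limma threshold over all genes, except when thymol replicate 5 was left out, which gave a difference of -1.05.

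*Cxcl5* encodes the chemokine known in mouse as LIX. Its DMSO libraries ranged from 2.49 to 3.55 log2 CPM (median 3.34) and its thymol libraries from 1.69 to 2.95 (median 2.33). The groups overlapped: thymol replicates 1 and 2 lay above the lowest DMSO library, while the other 4 thymol libraries lay below all of them. The mean difference was -0.81 ± 0.26 log2 units (SE, 95% confidence interval -1.34 to -0.28), and the gene did not pass the limma threshold. Reads numbered 37 to 80 per DMSO library and 16 to 48 per thymol library, with a pooled ratio of 0.551 (95% interval 0.460 to 0.657, counting error only). In the thymol libraries *Cxcl5* and *Cxcl2* stood at almost the same level within each library, with a *Cxcl2* minus *Cxcl5* difference of -0.029 ± 0.20 log2 units (SD, n = 6). In the DMSO libraries that difference was 1.12 ± 0.48.

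**Figure D2:**
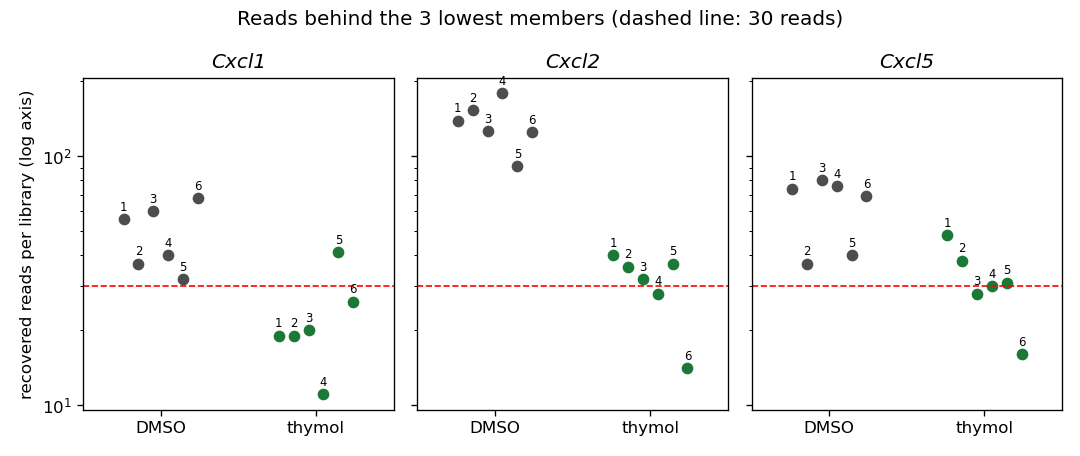
Recovered whole reads per library (vertical log axis) for *Cxcl1*, *Cxcl2* and *Cxcl5* in the DMSO (grey) and thymol (green) libraries, with replicate numbers beside the points and the 30-read minimum as a dashed line. All DMSO libraries lie above the line for each gene, whereas 1 thymol library of *Cxcl1* and 4 each of *Cxcl2* and *Cxcl5* reach it.

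The plot of reads shows that these genes met the authors' filter through their DMSO libraries. The filter asked for 30 reads in at least 6 libraries, which is the size of 1 group, so that a low gene could enter the table through the group where it was higher. The value of the low members in thymol-treated cells is the less precise side of each comparison, and the prior of 1.96 reads per average library pulls their differences toward 0. Between the last 500 bases of the transcripts in 77 pairs of family genes, where 3′ reads start, the longest exact shared stretch was 16 bases. Over whole transcripts it was 157 bases, between *Cxcl2* and *Cxcl3*.

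*Pf4* is the member with a large difference at a high level. Its DMSO libraries ranged from 7.62 to 8.52 log2 CPM (median 7.97) and its thymol libraries from 6.41 to 7.83 (median 6.72). Thymol replicate 1, at 7.83, stood above the other thymol libraries and above the lowest DMSO library, and the other 5 thymol libraries were below all DMSO libraries. The replicates numbered 1 were the highest of both groups, the DMSO one at 8.52. The mean difference was -1.08 ± 0.12 log2 units (SE, 95% confidence interval -1.33 to -0.83), or 2.11-fold lower with thymol, and it was -1.26 without thymol replicate 1. That SE is limma's, which borrows the spread of genes of similar level, and the 12 *Pf4* values alone gave an SE of 0.244.

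Counting error was small for *Pf4*. It had 1310 to 2763 reads per DMSO library and 496 to 1473 per thymol library, and the pooled ratio of thymol to DMSO was 0.487 (95% interval 0.471 to 0.503, counting error only). The SD between thymol libraries, 0.52 log2 units, far exceeded the counting SD of 0.052. The defining platelet genes *Itga2b*, *Gp1ba* and *Gp9* were not in the table, and of 14 platelet and megakaryocyte markers only *Treml1* and *Vwf* were, at a summed 9.55 to 15.4 CPM in the DMSO libraries and 8.40 to 14.8 CPM in the thymol libraries. *Pf4* alone had 262.5 CPM pooled over the DMSO libraries and 127.8 CPM over the thymol libraries.

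The mean level of the macrophage markers was 8.24 ± 0.034 log2 CPM in the DMSO libraries and 8.23 ± 0.044 in the thymol libraries (SD, n = 6 each; exact two-sided permutation test, p = 0.556). Their summed level was 19738 to 21631 CPM with DMSO and 19910 to 23723 CPM with thymol. Single markers did differ, and of the 19, 2 were higher and 2 were lower past the limma threshold, beside 0.654% and 1.57% over all genes. The mean of the fibroblast markers was 7.95 ± 0.040 log2 CPM in control libraries and 7.89 ± 0.060 in treated ones (SD, 6 libraries each; exact two-sided permutation test, p = 0.0823, adjusted over both lists p = 0.164), with 3 of 14 markers lower past the limma threshold and 0 higher. The summed level of the fibroblast markers was 11105 to 12191 CPM with DMSO and 10049 to 11038 CPM with thymol. Every thymol library was thus below every DMSO library in that sum, which was not tested.

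*Cxcl14* had a smaller difference. Its DMSO libraries ranged from 4.68 to 5.46 log2 CPM (median 5.17) and its thymol libraries from 4.41 to 5.01 (median 4.67). DMSO replicates 2 and 4, both at 4.68, were as low as most thymol libraries, and thymol replicate 1 was the highest of its group. The mean difference was -0.42 ± 0.14 log2 units (SE, 95% confidence interval -0.69 to -0.14), on 169 to 341 reads per DMSO library and 134 to 230 per thymol library. This gene did not pass the limma threshold in all 12 libraries, but did so without DMSO replicate 2 (-0.50), without DMSO replicate 4 (-0.50) and without thymol replicate 1 (-0.48).

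*Cxcl12*, the stromal chemokine that retains haematopoietic cells in their niches, had nearly the same level in both groups. It ranged from 7.90 to 8.26 log2 CPM (median 8.06) with DMSO and from 7.94 to 8.35 (median 8.06) with thymol, and the highest value was that of thymol replicate 5. The ranges lay one over the other, and the mean difference was 0.025 ± 0.065 log2 units (SE, 95% confidence interval -0.10 to 0.16). It had 1487 to 2963 reads per library.

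*Cxcl16*, which also acts as a scavenger receptor for oxidized lipoproteins, behaved likewise. Its control libraries ranged from 7.19 to 7.49 log2 CPM (median 7.34) and its thymol libraries from 7.18 to 7.48 (median 7.35). Thymol replicate 1 was the only thymol library below all DMSO libraries. The mean difference was -0.0090 ± 0.067 log2 units (SE, 95% confidence interval -0.14 to 0.13), on 911 to 1536 reads per library.

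**Figure D3:**
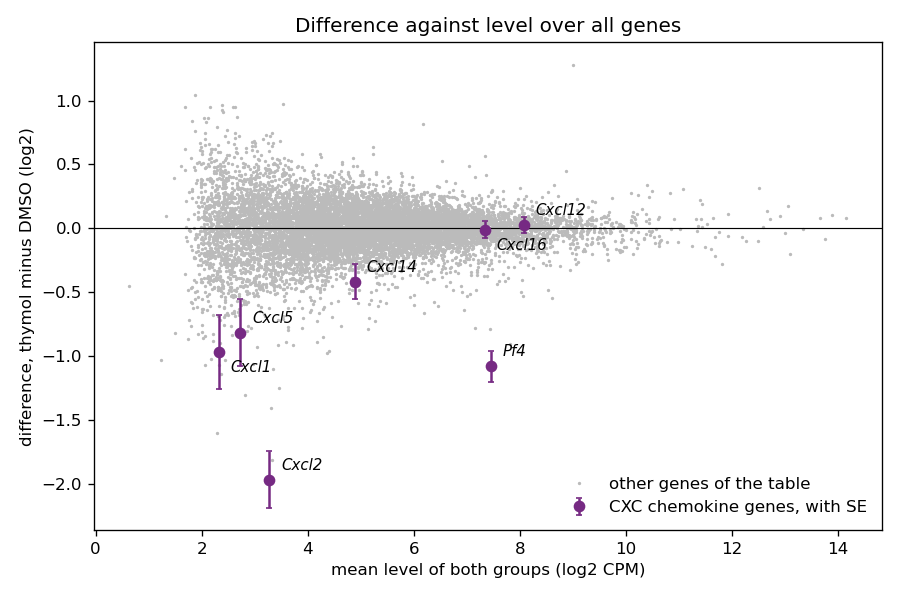
Mean level over both groups in log2 CPM (horizontal axis) against the mean difference, thymol minus DMSO, in log2 units (vertical axis) for every gene of the table (grey) and the 7 CXC chemokine genes (purple, with SE). *Cxcl2* lies at -1.96 and *Pf4* at -1.08, while *Cxcl1* and *Cxcl5* lie where the grey cloud is widest and *Cxcl12* and *Cxcl16* lie close to 0.

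The plot of difference against level places the members among all genes. The median difference of the members was -0.81 log2 units, beside 0.0026 over all genes. Nothing is read from that median, since the family was chosen with this contrast known. In addition, *Cxcl1*, *Cxcl2* and *Cxcl5* met the filter through their DMSO libraries. At low levels the differences of single genes scattered more, so that the values of *Cxcl1* and *Cxcl5* stood closer to those of other genes than the value of *Pf4*, which had a narrow cloud around it.

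Libraries of odd and even number were compared because the odd- and even-numbered DMSO libraries had been seen to differ in these data, although the labels name no batch. *Cxcl2* differed by -1.63 log2 units between the 3 odd-numbered libraries of each group and by -2.30 between the 3 even-numbered ones. For *Pf4* the values were -1.10 and -1.06, for *Cxcl1* they were -0.87 and -1.06, and for *Cxcl5* they were -0.80 and -0.83. *Cxcl14* differed by -0.65 in the odd-numbered libraries, where it passed the limma threshold, and by -0.18 in the even-numbered ones. Its DMSO level was 5.35 log2 CPM in the odd-numbered and 4.84 in the even-numbered libraries, while its thymol levels were 4.70 and 4.66. The gap between the odd- and even-numbered values was not tested. Each set holds only 3 libraries per group, so a call can be lost there without a change in the difference.

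**Figure D4:**
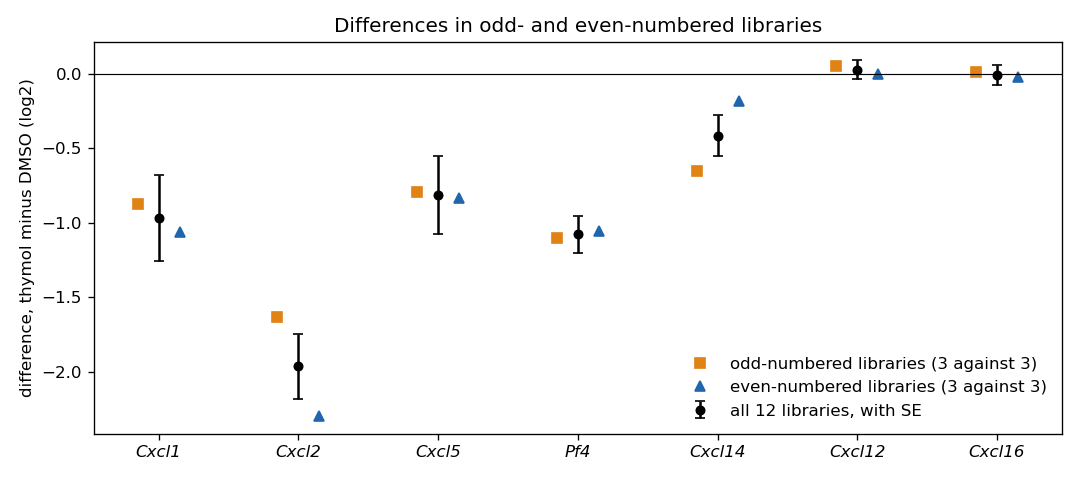
Difference, thymol minus DMSO, in log2 units (vertical axis) of each CXC chemokine gene in the odd-numbered libraries (orange squares), the even-numbered libraries (blue triangles) and all 12 libraries (black points, with SE). *Cxcl1*, *Cxcl2*, *Cxcl5* and *Pf4* are below -0.79 in either set, whereas *Cxcl14* is at -0.65 in one and -0.18 in the other.

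The plot of odd- and even-numbered libraries shows the same sign in both sets for 5 of the members. For *Cxcl12* and *Cxcl16* the signs differed, at 0.054 and -0.0032 log2 units for *Cxcl12* and at 0.0080 and -0.026 for *Cxcl16*, all within 1 SE of 0.

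Measured genes beside the chromosome 5 cluster that are no chemokines were examined for the same contrast. There were 5 of them within 500 kb, and 0 passed the limma threshold (adjusted p-values over all genes). Over all genes, 1.57% were lower and 0.654% higher past it. Among so few genes a count of 0 is near those shares, and nothing is read from it. *Mthfd2l*, a mitochondrial folate enzyme next to *Cxcl2*, differed by -0.68 ± 0.30 log2 units (SE, adjusted p = 0.321). *Rassf6* differed by -0.31 ± 0.23 (adjusted p = 0.666). The growth factor genes *Ereg* and *Btc* differed by -0.13 ± 0.089 (adjusted p = 0.618) and -0.094 ± 0.14 (adjusted p = 0.889), and *Ankrd17* by -0.024 ± 0.062 (adjusted p = 0.949).

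The members also differed in their 3′ untranslated regions. The pentamer ATTTA, the core of AU-rich elements that mark short-lived cytokine transcripts, was counted in the longest annotated 3′ region of each gene (GENCODE vM21). *Cxcl1* held 7 in 592 bases, or 11.8 per kb, a density above that of 99.7% of 10035 genes. *Cxcl2* held 11 in 1494 bases (7.36 per kb, above 98.2% of genes) and *Cxcl5* 5 in 1111 bases (4.5 per kb, above 92.0%). The whole *Cxcl2* gene spans 2068 bases, and whether its 1494-base region is the one used in these cells was not examined. *Pf4* held 1 in only 123 bases, which is 8.13 per kb but rests on a single pentamer. *Cxcl16* held 2 in 1421 bases (1.41 per kb), *Cxcl12* 4 in 5188 bases (0.771 per kb) and *Cxcl14* 0 in 1149 bases. The median gene had 1.43 per kb. These counts describe the sequence, and their part in the levels was not tested.

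Deviations from the group means were compared across the 12 libraries as a description of which members varied together. The libraries share depth and handling, so these correlations do not separate biology from library. *Cxcl5* and *Cxcl2* had a Pearson correlation of 0.63 over the 12 libraries, with 0.92 among the 6 thymol libraries and 0.19 among the 6 DMSO libraries. In the thymol libraries these genes had only 16 to 48 and 14 to 40 reads. *Cxcl14* and *Pf4* had 0.63, with 0.74 and 0.72 in the thymol and DMSO libraries. *Cxcl1* and *Cxcl2*, which share their promoter motif and their direction, had -0.45. Other pairs were negative too, with -0.58 for *Cxcl5* and *Cxcl12*, -0.53 for *Cxcl16* and *Cxcl5* and -0.51 for *Cxcl16* and *Cxcl14*. The pairs named are a selection, and none was tested. Variation between libraries did not join all of the members that were lower with thymol.

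By the same measure, the genes most like *Pf4* among those above the median level were *Ctsd* (0.95), a lysosomal protease, *Sec63* (0.91) and *Atp6ap2* (0.90). *Ctsd* differed by 0.31 log2 units between thymol and DMSO, opposite in sign to *Pf4*. For *Cxcl2* they were *Pla2g4a* (0.90), *Ibtk* (0.89) and *Smarca5* (0.86), and for *Cxcl1* they were *Lrrc42* (0.88), *Sh3glb2* (0.88) and *Hypk* (0.86). *Cxcl5* was most like *Mrpl33* (0.86), *Milr1* (0.84) and *Trf* (0.84). *Cxcl14* was most like *Grn* (0.91), *Anapc11* (0.88) and *Pmm1* (0.86). *Cxcl12* was most like *Cmc1* (0.93), *Ccnd2* (0.88) and the collagen gene *Col1a2* (0.85). *Cxcl16* was most like *Trmt112* (0.89), *Alkbh8* (0.86) and *Eif2b2* (0.82). The genes named here were picked as the highest of very many correlations, each over few libraries. High values can arise in such a search without any relation, and none was tested. No shared variation is therefore read from them.

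Of 10 CXC and atypical chemokine receptors, 2 were in the table, and both are receptors of CXCL12. *Cxcr4* had a level of 6.11 ± 0.31 log2 CPM in control and 6.16 ± 0.23 in treated libraries (SD, 6 libraries each; difference 0.057 ± 0.11, limma adjusted p = 0.918). *Ackr3*, which scavenges CXCL12, had 4.52 ± 0.21 and 4.31 ± 0.17 (difference -0.20 ± 0.14, adjusted p = 0.647). The receptors of the neutrophil chemokines and of CXCL16 were not analysed here.

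Enzymes that cut or release chemokines were measured for 10 of 13 listed genes, and 1 rose and 1 fell past the limma threshold. Over all genes, 0.654% rose and 1.57% fell past it. *Mmp12*, the macrophage elastase, which can trim ELR chemokines, rose by 0.45 ± 0.065 log2 units (SE, adjusted p = 5.3e-06). *Timp3*, an inhibitor of ADAM17 and of matrix metalloproteinases, fell by 0.22 ± 0.049 (adjusted p = 0.0043), a call that was lost in the odd-numbered libraries (-0.19, adjusted p = 0.494). The call of *Mmp12* was lost without the mean-variance trend (adjusted p = 0.076). The sheddases of CXCL16 had differences near 0, with 0.046 ± 0.074 for *Adam10* (adjusted p = 0.902) and 0.029 ± 0.075 for *Adam17* (adjusted p = 0.949). *Mmp14* differed by -0.084 ± 0.059 (adjusted p = 0.645). The median difference of the list was -0.077.

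Proteoglycans and the enzymes of heparan sulfate hold chemokines at cell surfaces. Of 23 listed genes, 22 were measured, with a median difference of -0.017 log2 units. Past the limma threshold, 0 were higher and 1 was lower (0.654% and 1.57% over all genes). That gene was *Srgn*, which encodes serglycin, the granule proteoglycan that binds platelet factor 4, and it fell by 0.48 ± 0.11 (SE, adjusted p = 0.0070), with 5 of 6 thymol libraries below all DMSO libraries. The call was lost in the odd-numbered (-0.52, adjusted p = 0.136) and in the even-numbered libraries (-0.43, adjusted p = 0.178). *Bgn*, *Cd44* and *Dcn*, the most abundant genes of the list, differed by 0.021 ± 0.044 (adjusted p = 0.928), -0.028 ± 0.048 (adjusted p = 0.906) and -0.12 ± 0.059 (adjusted p = 0.428).

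Regulators of chemokine transcript turnover were all measured, 14 of 14, and 0 passed the limma threshold, with 1 at an unadjusted p-value under 0.05 and a lowest adjusted p of 0.248. Their median difference was -0.023 log2 units. *Mapkapk2*, the kinase that restrains the decay factor tristetraprolin, differed by -0.074 ± 0.061 (adjusted p = 0.723), the phosphatase gene *Dusp1* by -0.081 ± 0.070 (adjusted p = 0.738) and *Rc3h2*, a roquin, by -0.00063 ± 0.070 (adjusted p = 0.999).

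Of 16 NF-κB core genes, all measured, 2 were lower past the limma threshold and 0 were higher (1.57% and 0.654% over all genes). The median difference of the list was -0.053 log2 units. *Nfkbia*, the inhibitor that NF-κB itself induces, fell by 0.23 ± 0.059 (SE, adjusted p = 0.018). *Bcl3*, an atypical relative of that inhibitor, fell by 0.48 ± 0.13 (adjusted p = 0.036). Both calls were close to the threshold. *Nfkbia* had adjusted p-values of 0.054 without DMSO replicate 1, 0.059 without thymol replicate 5 and 0.055 without thymol replicate 6, and it lost the call in the odd-numbered (-0.30, adjusted p = 0.104) and even-numbered libraries (-0.16, adjusted p = 0.460). *Bcl3* lost the call without any 1 of DMSO replicates 1, 2, 4 and 6 or thymol replicates 4, 5 and 6 (adjusted p = 0.054 to 0.112), and it differed by -0.24 in the odd-numbered and -0.73 in the even-numbered libraries. The subunit gene *Rela* differed by -0.033 ± 0.082 (adjusted p = 0.944), *Cyld* by 0.087 ± 0.077 (adjusted p = 0.752) and *Ikbkb* by 0.12 ± 0.088 (adjusted p = 0.694).

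Sensors and cytokines that lead to CXC chemokine expression were listed with earlier results of these data known. Of 25 listed genes, 22 were measured, 4 were lower and 1 was higher past the limma threshold (1.57% and 0.654% over all genes), and the median difference was -0.041 log2 units. *Trem1*, an amplifying receptor of myeloid cells, fell by 1.81 ± 0.25 (SE, adjusted p = 1.6e-06), and *Clec4e*, which encodes the lectin receptor Mincle, fell by 1.25 ± 0.20 (adjusted p = 3.5e-05). *Il6* fell by 0.77 ± 0.17 (adjusted p = 0.0033) and *Tlr2* by 0.66 ± 0.15 (adjusted p = 0.0078). All 6 thymol libraries lay below all DMSO libraries for each of these 4 genes, as they did for 124 of all genes (1.16%). The fewest reads in any library were 9 for *Trem1*, 29 for *Clec4e*, 58 for *Il6* and 70 for *Tlr2*. With each library left out in turn, *Trem1* differed by -1.95 to -1.50 log2 units, the latter without thymol replicate 2. The call of *Il6* was lost within each set of 3 against 3, with differences of -0.75 (odd-numbered) and -0.80 (even-numbered), and those of *Clec4e* and *Tlr2* were lost in the odd-numbered ones alone, at -0.98 and -0.47.

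*Clec7a*, which encodes the receptor dectin-1, was the gene of that list with the opposite direction, and it rose by 0.57 ± 0.086 log2 units (SE, adjusted p = 1.1e-05), with all 6 thymol libraries above all DMSO libraries. Without the mean-variance trend its adjusted p was 0.087. Its abundant companions *Tab2*, *Tnfrsf1b* and *Tnfrsf1a* differed by 0.055 ± 0.064 (adjusted p = 0.830), 0.087 ± 0.069 (adjusted p = 0.709) and 0.0077 ± 0.067 (adjusted p = 0.987).

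Genes that act beside CXCL12 in stromal niches and vessels were measured for 10 of 13, with a median difference of -0.097 log2 units. Past the limma threshold, 0 were higher and 1 was lower (0.654% and 1.57% over all genes). *Hif1a*, a transcription factor of hypoxia upstream of *Cxcl12*, fell by 0.26 ± 0.070 (SE, adjusted p = 0.027). This call was lost without any 1 of DMSO replicates 2, 4 and 6 or thymol replicates 2, 3 and 6 (adjusted p = 0.060 to 0.130), and the difference was -0.090 in the odd-numbered and -0.43 in the even-numbered libraries. *Csf1* differed by 0.043 ± 0.052 (adjusted p = 0.841), *Vcam1* by -0.076 ± 0.061 (adjusted p = 0.709) and *Vegfa* by -0.11 ± 0.076 (adjusted p = 0.659).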

How the data were processed

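QuantSeq 3′ libraries of primary mouse adult fibroblasts (6 DMSO, 6 thymol) were analysed. The authors aligned reads with STAR 2.5.3 to GRCm38, counted them per gene with HTSeq 0.6.1, kept genes with 30 reads in at least 6 samples, scaled the libraries by TMM and deposited log2 CPM values with a prior. Of the 10697 genes, 98.0% met that minimum in the recovered reads. The paper also states the minimum as a CPM threshold, which was not applied here, so counts of libraries with 30 reads ignore depth. Whole reads were recovered from the steps between low values, of which 100% were whole within a tolerance of 0.02 (up to 200 reads). The prior was worth 1.96 reads (0.289 CPM). PCR reads are not independent molecules, so intervals from reads (95%, exact) cover counting error only.

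Differences were fitted with limma 3.58.1 in R 4.3.3 (mean-variance trend, no covariate) on all 12 libraries, two-sided, with Benjamini-Hochberg adjustment over the 10697 genes and a threshold of 0.05. The deposited unit was log2, so no count model was the main test, and voom on the recovered reads was an alternative. Marker means were compared by exact permutation. Alternatives covered the trend, pseudocount, filter, scaling, replicate numbers, odd and even libraries and each library left out. Scripts were tested on simulated data. The members and gene lists were chosen with earlier results of these data known. Named genes were all members, all measured receptors, the genes of each list past the threshold, up to 3 further genes of the highest level per list, and the 3 genes most correlated with each member. Neighbours of the chromosome 5 cluster and the sequence counts were added after the values were seen. Promoters are from the RefSeq table of GRCm38.p6 and were trimmed where they ran past the GENCODE start. Columns of samples outside the series numbered 0.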

Additional observations from a re-analysis of the deposited data

Results flagged for a closer look

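Among 80 groups of 6 libraries examined for a single library far from the rest, 2 had one, where chance alone gives about 1 in 20, or 4. *Cxcr4*, the CXCL12 receptor, was at 5.71 log2 CPM in thymol replicate 1, while the next thymol library was at 6.15, a gap of 0.70 of the group's range. *Adam17* was at 7.04 log2 CPM in DMSO replicate 1, with the next DMSO library at 6.80, a gap of 0.69 of the range. Without these libraries the thymol minus DMSO differences were 0.15 log2 units for *Cxcr4* and 0.076 for *Adam17*.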

How the results depend on the processing

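Without the mean-variance trend 57 genes passed (238 with it) and 1 member, *Cxcl2*, so that *Pf4* lost its call, as did *Mmp12*, *Timp3*, *Srgn*, *Nfkbia*, *Bcl3*, *Clec7a* and *Hif1a*. A filter of at least 4 log2 CPM removed *Cxcl1*, *Cxcl2* and *Cxcl5* and left 1 member past the threshold, *Pf4*. The odd-numbered libraries alone gave 70 genes, with *Cxcl14* past the threshold besides *Cxcl2* and *Pf4*, and the even-numbered ones 167. With 10 CPM added before the logarithm, *Cxcl2* differed by -0.96 log2 units, *Cxcl1* by -0.32 and *Cxcl5* by -0.32, and the fibroblast markers differed by -0.079 (adjusted p = 0.0217, exact permutation test), against -0.059. The median-centred libraries gave 263 genes, 197 of them lower, beside 168 of 238.

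Leaving out each library in turn gave 172 genes (without thymol replicate 6) to 270 (without thymol replicate 1), with 2 to 3 members. Among the named list genes, 34 values lost their call in a setting and 645 kept it or stayed without one, and the cause was not tested.

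With the replicate number as a replicate block, 332 genes passed, 228 of them lower, with the same 2 members. Same-numbered libraries correlated between -0.049 and 0.27, with only replicates 3 and 4 correlating best with their own number, so the numbers were not taken to pair the samples. *Cxcl1* and *Cxcl5* rested on 11 to 48 reads per thymol library, and the difference that such reads can detect was not computed.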
